A study of Caenorhabditis elegans with 2 samples.

Results

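Of the 21824 enriched regions in the pooled ChIP-seq list for tagged F13H6.1, 4763 (21.8%) had their summit, the base of highest signal, in an annotated coding exon. They were chosen by place alone: the summit had to lie in the coding part of an exon of a nuclear protein-coding gene and over 100 bp from any tRNA, snoRNA or snRNA gene. These are called coding-exon regions here. Of them, 16 were also in the authors' thresholded list, which holds the pooled regions that passed a cutoff on the irreproducible discovery rate, a measure of how well ranks hold between replicates. Its regions are those of highest signal in the pooled list. The animals were hermaphrodite C. elegans of strain OP471, collected whole as late embryos 5 hours after synchronization by bleaching. All of them carried the unc-119(tm4063) mutation on chromosome III and the transgene wgIs471, which encodes F13H6.1 (the bcl-11 protein) with GFP and FLAG fused to its C terminus. There was 1 group of 2 biological replicates and no untagged or untreated group among the lists, so no condition was compared. The lists come from an integrated transgene in a mixture of all embryonic cell types, so binding in few cells and weak binding in many cannot be told apart.

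BCL11 proteins are zinc finger transcription factors, and in mammals BCL11A is known for repressing fetal globin genes through the word TGACCA. In ChIP-seq, transcription factor sites are mostly found in promoters and enhancers, and summits inside coding exons are the less usual place. The coding sequence of C. elegans is more GC-rich than its introns and intergenic DNA. Its most GC-rich coding sequences include those of the cuticle collagens, secreted by the epidermis, whose protein chains repeat the triplet glycine-X-Y and whose X and Y are often proline. Glycine is coded by GGN and proline by CCN.

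The sequences below are the summits, with 50 bp on each side, of 6 of the 7 thresholded coding-exon regions of highest signal, the places that stood out most. They were read from the RefSeq WBcel235 (ce11) genome and are given 5′ to 3′ on the plus strand. Capitals mark TGACCA on this strand or its reverse complement. Among the 16 regions, lin-42 alone had the word within 50 bp of its summit.
ZK112.4, chrIII:7729787-7729887, plus strand: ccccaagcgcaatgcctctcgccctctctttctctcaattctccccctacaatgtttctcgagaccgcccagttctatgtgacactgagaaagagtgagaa
mom-1, chrX:6296441-6296541, plus strand: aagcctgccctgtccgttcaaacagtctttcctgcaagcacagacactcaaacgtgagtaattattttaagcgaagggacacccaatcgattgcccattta
pks-1, chrX:5429515-5429615, plus strand: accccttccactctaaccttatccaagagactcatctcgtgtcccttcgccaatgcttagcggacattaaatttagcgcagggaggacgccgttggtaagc
lin-42, chrII:1239762-1239862, plus strand: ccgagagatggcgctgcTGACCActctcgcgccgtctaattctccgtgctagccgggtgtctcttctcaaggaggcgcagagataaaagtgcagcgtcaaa
F41F3.3, chrV:4647990-4648090, plus strand: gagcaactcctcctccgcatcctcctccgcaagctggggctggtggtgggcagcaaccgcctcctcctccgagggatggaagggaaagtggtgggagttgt
Y53F4B.9, chrII:15008615-15008715, plus strand: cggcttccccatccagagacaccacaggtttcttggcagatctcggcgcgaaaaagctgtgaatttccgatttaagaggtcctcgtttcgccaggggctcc

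The next 6 sequences are the same window of build ce11 (WBcel235) in cuticle collagen genes, on the coding strand. The regions in col-130 and col-105 were thresholded, and those in col-71, col-109, col-34 and col-124 were among the 10 coding-exon regions of highest signal outside the thresholded list. Capitals mark glycine codons in the reading frame of the gene. They are shown because the collagen repeat can be read in them directly: 11 of the 33 whole codons in the col-130 window were glycine and 9 were proline. The count for col-124 was 11 glycine and 12 proline codons. In col-34 it was 9 and 14, in col-105 7 and 11, in col-109 6 and 12, and in col-71 5 and 11.
col-130, chrIV:12427893-12427993, minus strand: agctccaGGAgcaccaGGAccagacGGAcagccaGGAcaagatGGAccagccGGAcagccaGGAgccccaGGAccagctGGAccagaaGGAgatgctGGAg
col-105, chrIV:1358286-1358386, minus strand: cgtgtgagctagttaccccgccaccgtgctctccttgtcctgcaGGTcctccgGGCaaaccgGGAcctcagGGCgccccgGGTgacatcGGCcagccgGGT
col-71, chrII:3500597-3500697, minus strand: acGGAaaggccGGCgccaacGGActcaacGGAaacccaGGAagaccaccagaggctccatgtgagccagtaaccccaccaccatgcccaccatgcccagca
col-109, chrIV:1818775-1818875, minus strand: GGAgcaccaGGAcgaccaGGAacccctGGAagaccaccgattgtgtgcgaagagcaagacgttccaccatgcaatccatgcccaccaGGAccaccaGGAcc
col-34, chrIV:4244006-4244106, minus strand: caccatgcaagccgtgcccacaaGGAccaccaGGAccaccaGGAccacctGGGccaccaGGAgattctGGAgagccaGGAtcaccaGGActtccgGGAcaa
col-124, chrIV:10216981-10217081, plus strand: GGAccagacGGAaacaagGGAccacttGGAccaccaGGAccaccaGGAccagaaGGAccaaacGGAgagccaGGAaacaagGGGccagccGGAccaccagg

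The GC content of the windows shown ran from 45.5% in mom-1 to 69.3% in col-105. Across all 4763 coding-exon regions the mean was 47.7% ± 8.38 (SD over regions), against 42.9% for all coding bases and 35.4% for the nuclear genome. Regions are not biological replicates, and intervals over them cover counting error alone.

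The thresholded coding-exon region of highest signal lay in ZK112.4 (III, 7729609 to 7730064), a short gene with a single coding exon inside an intron of ncl-1, a regulator of nucleolar size. Its pooled signal was 152 and its pooled rank 251, from rank 1271 in replicate 1 and rank 87 in replicate 2. The replicates thus placed it far apart, more so than for any other of the 16. The signal is the value the authors' peak caller gave each region, on a scale that is not stated, and it serves here to rank regions within a list.

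The next sites were placed more alike by the replicates. In mom-1 (X, 6296263 to 6296718), which encodes a Porcupine-like acyltransferase needed to secrete Wnt ligands, the signal was 144 and the ranks were 287 pooled, 282 in replicate 1 and 324 in replicate 2. The pooled summit of mom-1 lay in coding exon 7 of 8, whereas the summit of the overlapping replicate 1 region lay in an intron. In pks-1 (X, 5429337 to 5429792), a polyketide synthase gene, the signal was 138 in coding exon 22 of 30, and the ranks were 321, 380 and 308. The nearest annotated transcript start to the pks-1 summit was 9994 bp away, the farthest such distance among the 16.

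The region in lin-42 (II, 1239584 to 1240039) had a signal of 120. The gene lin-42 is the worm homologue of Period and belongs to the heterochronic genes, which time larval development. Its ranks were 449 pooled, 698 in replicate 1 and 371 in replicate 2. The summit fell in the last coding exon of the isoform with the longest coding sequence and 289 bp from an annotated lin-42 transcript start. In Y18D10A.4 (I, 12815775 to 12816230) the ranks were 496, 514 and 482. In F41F3.3 (V, 4647812 to 4648267) the signal was 111, with ranks 542, 678 and 454. In Y53F4B.9 (II, 15008437 to 15008892) it was 111, with ranks 552, 857 and 391.

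The top of a replicate's list is taken here as its highest regions by signal, as many as the thresholded list holds. Of the 16, 7 were in the top of both replicates and all 16 in the top of at least 1. The 7 were mom-1, pks-1, lin-42, Y18D10A.4, F41F3.3, Y53F4B.9 and R12C12.6 (II, 6047629 to 6048084), which had ranks 847 pooled, 1061 in replicate 1 and 802 in replicate 2. The R12C12.6 summit lay 10 bp from the gene's start. The remaining sites each fell outside the top in 1 replicate.

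Among those, col-130 (IV, 12427715 to 12428170) had a signal of 93.4 and ranks 809, 1122 and 730. The other collagen, col-105 (IV, 1358108 to 1358563), had a signal of 92.7 and ranks 830, 720 and 1138. In ZC477.4 (IV, 7098495 to 7098950) the ranks were 865, 1744 and 595. Its summit also lay in the noncoding RNA gene ZC477.16. In T25F10.1 (V, 6768422 to 6768877), whose exon overlaps a UTR of clik-1, a calponin-like gene, the ranks were 871, 912 and 1106. In dos-3 (III, 835677 to 836132), which encodes a Notch co-ligand of the DOS family, they were 934, 642 and 1709. The sites in picd-1 (V, 116139 to 116594), idpc-1 (III, 11427578 to 11428033) and F26F12.3 (V, 5843873 to 5844328) had pooled ranks 945, 948 and 963. Replicate 1 ranked these last sites at 1650, 1357 and 1362, and replicate 2 at 839, 800 and 976, so replicate 2 gave them the higher place.

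Just outside the thresholded list stood a region in din-1, a corepressor that acts with the nuclear receptor DAF-12, with a pooled signal of 81.7 and rank 1075. Of the 10 coding-exon regions that followed the 16 by signal, 4 were in collagens: col-71 at rank 1078, col-109 at 1149, col-34 at 1163 and col-124 at 1291. A second region in Y53F4B.9 (rank 1191) overlapped the site in that gene. The others were in Y79H2A.3 (1219), nola-3 (1272), which encodes a protein of the H/ACA snoRNA particles, golg-4 (1273), named as a golgin, and madd-3 (1293), a kinase gene needed for muscle arms. The replicates differed widely on several of them. Replicate 1 put col-71 at rank 2949 and replicate 2 at 728, whereas Y79H2A.3 ranked 816 in replicate 1 and 3892 in replicate 2.

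**Figure D1:**
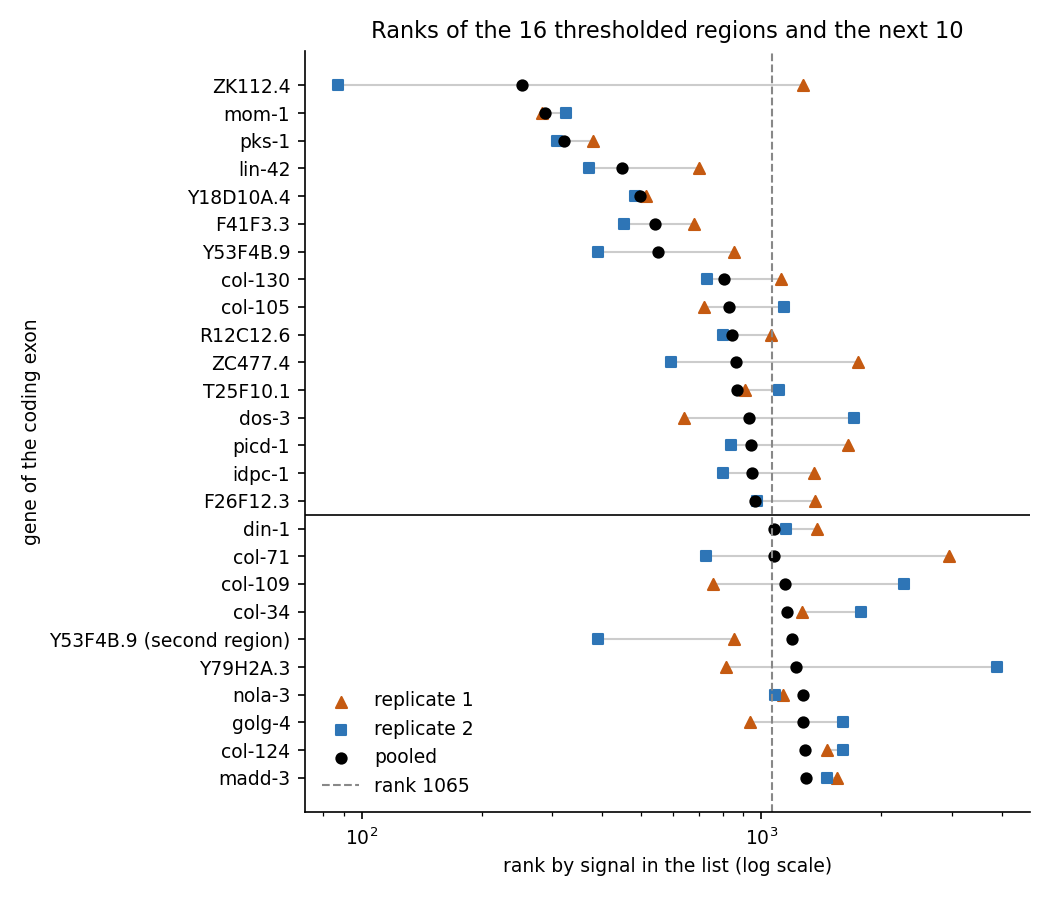
Rank by signal (log axis, left is higher) of 26 coding-exon regions in the pooled list (circles), replicate 1 (triangles) and replicate 2 (squares), named by gene, with the 16 thresholded regions above the black line and the next 10 below it. The dashed line is the number of regions in the thresholded list. mom-1, pks-1 and Y18D10A.4 had close ranks in both replicates, and ZK112.4 ran from 1271 in replicate 1 to 87 in replicate 2.

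Coding-exon regions seldom passed the threshold. The 16 made 0.336% of the 4763 (95% Wilson interval 0.207 to 0.545), where 4.88% of all pooled regions passed. Of the 16573 other nuclear regions over 100 bp from those RNA genes, 873 (5.27%) passed, an odds ratio of 0.0606 for coding exons (95% interval 0.0369 to 0.0995, two-sided Fisher's exact test, adjusted p = 2.50e-74). The difference was also found against regions in introns, of which 200 of 6714 (2.98%) passed, with an odds ratio of 0.110 (0.0659 to 0.183, exact test, adjusted p = 1.40e-29). Against UTR regions, of which 26 of 1313 (1.98%) passed, the odds ratio was 0.167 (0.0892 to 0.312, exact test, adjusted p = 1.77e-08). P-values were adjusted by Benjamini-Hochberg over these 3 comparisons.

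The same pattern ran down the ranked list. None of the 250 regions of highest signal had its summit in a coding exon (upper 95% Wilson limit 1.51%), and at ranks 251 to 500 there were 5 of 250 (2.00%). The share was 1.95% from rank 501 to the last thresholded rank, 7.81% at ranks 1066 to 2000 and 17.1% at ranks 2001 to 4000. From rank 4001 on it stayed between 21.2% and 26.9% in every bin. Coding exons make up 24.7% of the nuclear genome outside the excluded surroundings of RNA genes, so the lower bins held coding exons at about the share of the genome. Intergenic summits made up 46% of ranks 1 to 250, 55.2% of ranks 251 to 500, 55.6% from rank 501 to the last thresholded rank and 30.8% of the lowest bin.

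**Figure D2:**
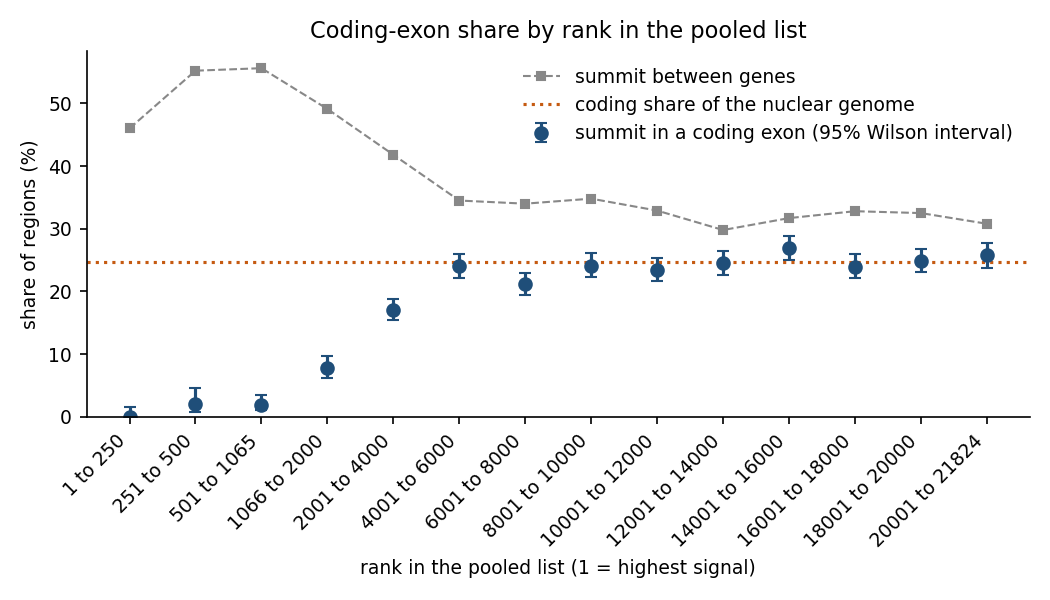
Share of regions (percent) with the summit in a coding exon (circles, 95% Wilson intervals) or between genes (squares) in bins of rank of the pooled list, highest signal on the left. The dotted line is the coding share of the nuclear genome, 24.7%. The coding-exon share starts at 0 and reaches the line at about rank 4001.

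Each replicate's own list gave coding exons a like place. Replicate 1 had 4289 coding-exon regions among 19517 (22%), the best at rank 380 and 20 in its top. Replicate 2 had 4927 among 21972 (22.4%), the best at rank 87 and 22 in its top. The lists do not show how deeply either library was sequenced.

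Coding-exon regions were found again less often than other regions. Of the 4763, 1996 (41.9%) overlapped a region of both replicates, where the background over all pooled regions was 48.5%. The share was 49.4% in other nuclear regions, an odds ratio of 0.739 (0.692 to 0.789, two-sided Fisher's exact test, adjusted p = 1.85e-19). It was 47.8% in UTR regions, an odds ratio of 0.787 (0.696 to 0.889, exact test, adjusted p = 2.09e-04), and 45.2% in intron regions, an odds ratio of 0.875 (0.812 to 0.943, adjusted p = 4.77e-04). The difference from introns lost its call when thresholded regions were left out of both classes (odds ratio 0.929, Fisher's exact test, adjusted p = 0.0587). A further 1062 coding-exon regions overlapped replicate 1 alone, 1363 replicate 2 alone, and 342 neither. The classes were not matched for signal. The median pooled rank was 12359 in coding exons, 11764 in introns, 11253 in UTRs and 10659 in other nuclear regions. Among coding-exon regions the share in both replicates fell from 79.0% at places 501 to 1000 by signal to 14.3% at places 4001 to 4763.

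Where both replicates had the region, they often had it in a coding exon too. Of the 1996, 1389 (69.6%) had coding summits in both replicates, a share with no counterpart measured in other classes. Both replicate summits lay within 100 bp of the pooled one in 975. The 975 made 20.5% of the 4763, against 28.3% of all pooled regions. The share was 24.7% in introns, 26.4% in UTRs and 33.0% between genes. For 27 of the 4763 (0.567%), the highest overlapping region of each replicate was in that replicate's top, against a background of 4.50%. Such a replicate region could have its own summit outside coding exons, and neighbouring pooled regions could share it. Over the 1996, the signals of the replicates had a Spearman correlation of 0.283, against 0.457 over 3034 intron regions, 0.470 over 628 UTR regions and 0.614 over 4034 intergenic regions. These are descriptions over regions that share both libraries. The narrower spread of signal in coding exons lies beside them: the 90th percentile was 45, against 51.2 in introns and 72.2 between genes.

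Base composition separated the places within coding sequence where regions were called. The density was 73.2 coding-exon regions per Mb where the window held under 30% GC. It was 69.6 per Mb where the 50 bp on each side of a coding base held 30 to 35% GC, and it was higher in each further bin. It was 147 per Mb at 40 to 45%, 517 at 50 to 55%, 1066 at 55 to 60% and 1802 at 60 to 65%. Above 65% GC, 89 regions in 0.0368 Mb of coding sequence gave 2418 per Mb. From 30 to 35% upward the replicates showed the same order when taken alone. They had 137 and 154 per Mb at 40 to 45% and 1393 and 1567 at 60 to 65% in replicates 1 and 2. The lowest 2 bins stood the other way round, with 71.4 and 67.8 per Mb under 30% GC and 75.1 and 72.7 at 30 to 35%. These bins were chosen after the values were seen, and no test was made.

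The GC relation was not particular to exons. Noncoding bases outside the surroundings of RNA genes had 344 regions per Mb at 40 to 45%, 1053 at 50 to 55% and 1600 at 60 to 65%. Coding sequence thus held fewer regions than noncoding sequence of like GC content up to the bin of 55 to 60%, and 1802 against 1600 per Mb at 60 to 65%. The low share past the threshold remained within bins of GC content. At 50 to 55% GC, 4 of 921 coding-exon regions (0.434%) were thresholded against 13.9% of 1827 noncoding regions, and at 60 to 65% the counts were 4 of 269 (1.49%) against 18.3% of 306. The share found in both replicates was also higher with GC, from 29.2% of coding-exon regions at 35 to 40% to 65.1% at 60 to 65%.

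**Figure D3:**
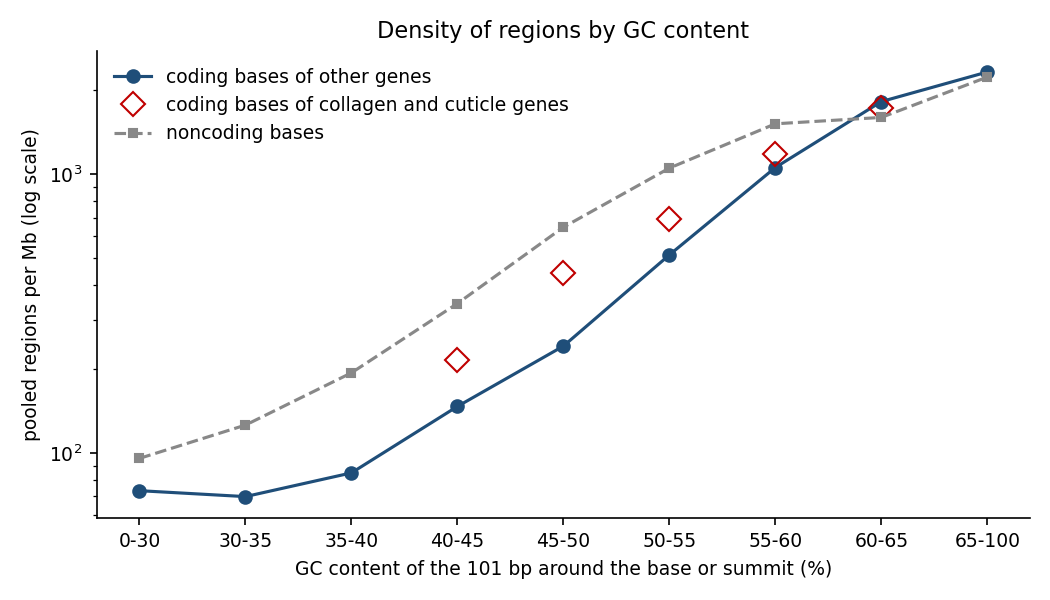
Pooled regions per Mb (log axis) in bins of GC content of the 50 bp on each side of a base or summit, for coding bases of collagen and cuticle genes (diamonds), coding bases of other genes (circles) and noncoding bases (squares). In coding bases of other genes the density is 73.3 per Mb in the lowest bin, 69.8 at 30 to 35% and 2329 in the highest, and noncoding bases run from 95.7 to 2234 per Mb. Collagen bins with under 20000 bases are not drawn.

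The 16 thresholded coding-exon regions were more GC-rich than the other 4747, at 55.7% ± 7.57 against 47.6% ± 8.37, a difference of 8.06 percentage points (two-sided permutation test over regions with 100000 resamples, p = 1.00e-04). Against the 212 sub-threshold coding-exon regions among the 3000 pooled regions of highest signal, the difference was 0.542 points (permutation test, p = 0.795). GC content followed rank among all members: the mean was 52.6% at places 251 to 500 by signal, 50.5% at 501 to 1000 and 45.4% at 3001 to 4000. In introns and between genes the thresholded regions were also the GC-richer, at 51.7% against 39.9% and at 49.2% against 40.8%.

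Collagen and cuticle genes held coding-exon regions far above the share of all genes. Of 180 such genes, 135 (75%, Wilson interval 68.2 to 80.8) had at least 1, against 3601 of the 19973 nuclear protein-coding genes (18.0%). The median length of their coding sequences is 0.913 kb, against 0.990 kb for all genes. The density was 91.0 regions per 100 kb of coding sequence against 19.3. By name, 117 of 156 genes named col- held a region, and 18 of the 24 others, such as sqt-3, dpy-17 and bli-6, genes known for body shape and blister mutants. The others are a mixed group. Those without a region were bli-3, bli-4, bli-5, dpy-5, dpy-9 and rol-3. Of these, bli-3, bli-4, bli-5 and rol-3 have 39.5 to 43.5% GC in their coding sequence.

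The collagen regions also stood higher in the list and were found again more often. Their 173 regions had a median signal of 39.8 (lowest 22.4, highest 93.4) and a median pooled rank of 5675, against 29.0 and 12568 for the 4590 other coding-exon regions. Of the 173, 132 (76.3%, 69.4 to 82.0) overlapped both replicates, against 40.6% (39.2 to 42) of the others. These shares were not matched for signal. Among all coding-exon regions the share was 79.0% at places 501 to 1000 by signal, 53.0% at 1001 to 2000 and 14.3% at 4001 to 4763. The collagen regions made 22 of the 100 coding-exon regions of highest signal and 68 of the 500 highest. After the genes named above, the highest were sqt-3 at pooled rank 1298, col-83 at 1365, col-84 at 1371 and col-95 at 1444. No test was made on the list, whose entries were chosen with earlier results of these data known.

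Within collagen genes the summits sat in the middle and later middle and seldom at the ends. The median summit lay 60.5% along the coding sequence (quartiles 50.1 and 69.5), and 5 of the 173 summits lay in the first 30%. In other genes the summits were spread evenly, with 9.17 to 11.2% in each of 10 equal bins. In the windows of collagen regions, 29.3% of codons were glycine and 22.6% proline. The shares were 6.96% and 6.96% in other coding-exon regions and 5.36% and 4.91% in all coding sequence.

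**Figure D4:**
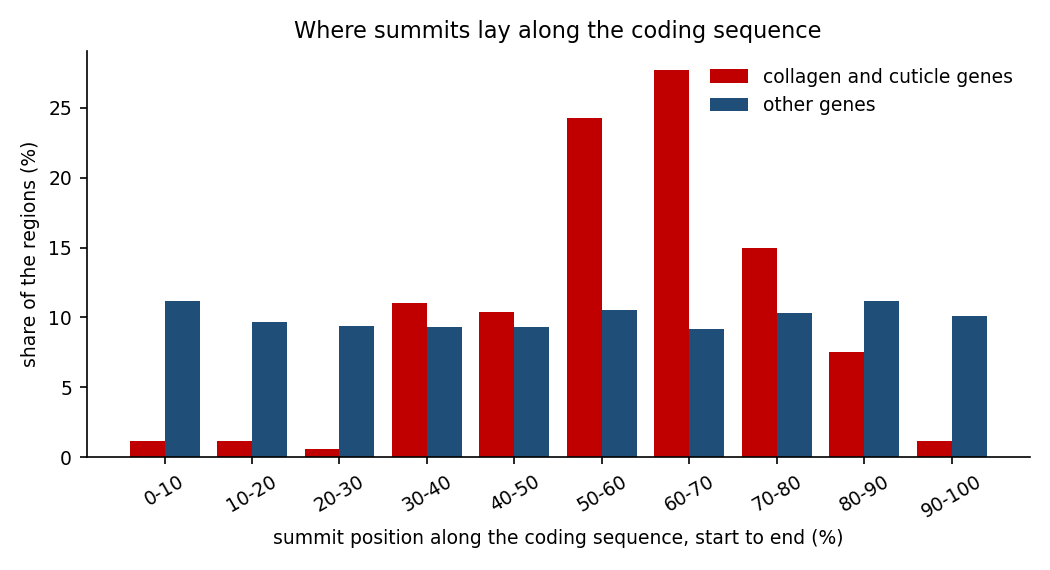
Share of coding-exon regions (percent) by the position of the summit along the coding sequence, in 10 equal bins from start to end, for 173 regions in collagen and cuticle genes and 4590 in other genes. Collagen summits peak at 60 to 70% of the length, with 27.7%, and the others stay between 9.17 and 11.2% in every bin.

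GC content moved with the collagen result. Collagen regions had a mean GC content of 59.4% ± 6.63 against 47.2% ± 8.11 in other members. Within bins of GC content around the summit, the density was 1179 per Mb in collagen coding bases against 1058 in other genes at 55 to 60%, and 1724 against 1824 at 60 to 65%. At 50 to 55% they were 689 (21 regions) and 514, and at 45 to 50% 443 (11 regions) and 242. Counted by gene, and binned by the GC content of the whole coding sequence, the shares stayed apart. At 50 to 55% GC, 44 of 60 collagen and cuticle genes held a region against 37.8% of 1430 other genes, and above 55% it was 70 of 88 against 43.8% of 217. Coding length was not matched in these shares, and longer genes more often held a region. Over all genes, collagens included, the density was 66.3 per 100 kb at 50 to 55% and 106 above 55%. The whole collagen and cuticle list had 91.0. Repeated sequence is the other measured property. Of 31-base words in the coding sequence of the list, 13.1% occur more than once in the genome, against 4.13% in all coding sequence. The 45 collagen and cuticle genes without a region had a median of 49.9% such words and the 135 with a region a median of 0. How the authors treated reads that match several places is not given in the sources used here. Of the 173 collagen windows, 141 (81.5%) held no repeated word. The part of GC content and of repeated sequence in the collagen result was not tested further.

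The type IV collagens of the basement membrane, which share the glycine repeat, were not in that list. The gene let-2 had 4 coding-exon regions, all in both replicates, the best at rank 1391, and emb-9 had 5, of which 3 were in both replicates.

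The other lists are given beside 19.3 regions per 100 kb, 42.9% GC and an 18.0% share of genes over all protein-coding genes. Chemoreceptor genes, at 37.3% GC, had 4.61 regions per 100 kb, and 57 of 1310 genes (4.35%) held at least 1. F-box and BATH genes, at 38.8%, had 6.71 per 100 kb (25 of 395 genes), and detoxification genes, at 39.5%, had 5.75 (14 of 185 genes). Nuclear hormone receptor genes, at 41.2%, had 13.2 (37 of 275 genes).

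Lists of about 47% GC ranged widely. Heterochronic genes, at 47.1%, had 64.3 per 100 kb, with 11 of 15 genes holding a region, and their median coding length was 2.33 kb. Among them lin-42 had 3 regions, alg-2, an Argonaute of the microRNA pathway, had 3 with the best at rank 3118, and hbl-1, a zinc finger gene, had 2 with the best at rank 4657. Splicing factor genes, at 46.7%, had 49.5 per 100 kb (26 of 53 genes), led by hrpu-1 with 7 regions. Body wall muscle genes, at 46.9%, had 39.7 per 100 kb (23 of 40 genes), led by unc-15, the paramyosin gene, at rank 2977. Proteasome genes, at 47.0% GC, had 21.8 per 100 kb (7 of 33 genes), P granule and maternal RNA-binding genes, at 46.8%, had 23.0 (10 of 31), and translation factor genes, at 46.5%, had 21.6 (10 of 41).

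Ribosomal protein genes, at 53.5% GC, had 35.4 per 100 kb, below the 91.0 of the collagen and cuticle list and above the 19.3 over all genes. That list had 53.3% GC over all its coding bases, which include rol-3 (7.44 kb at 39.5%) without a region. The median by gene was 55.4% in its 135 genes with a region, so GC content was not matched. A region was held by 14 of the 81 (17.3%), which have a median coding length of 0.441 kb, and the best, in rpl-4, had rank 4229. Of all genes with up to 0.5 kb of coding sequence, 6.76% held a region. Histone genes had 32.2 per 100 kb, where 62.1% of their 31-base words are repeated in the genome. None of 31 major sperm protein genes held a region (upper Wilson limit 11%), and 78.7% of their words are repeated. Over all coding-exon regions 96.3% of the windows held no repeated word, against 95.7% in UTRs, 90.4% between genes and 87.3% in introns.

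**Figure D5:**
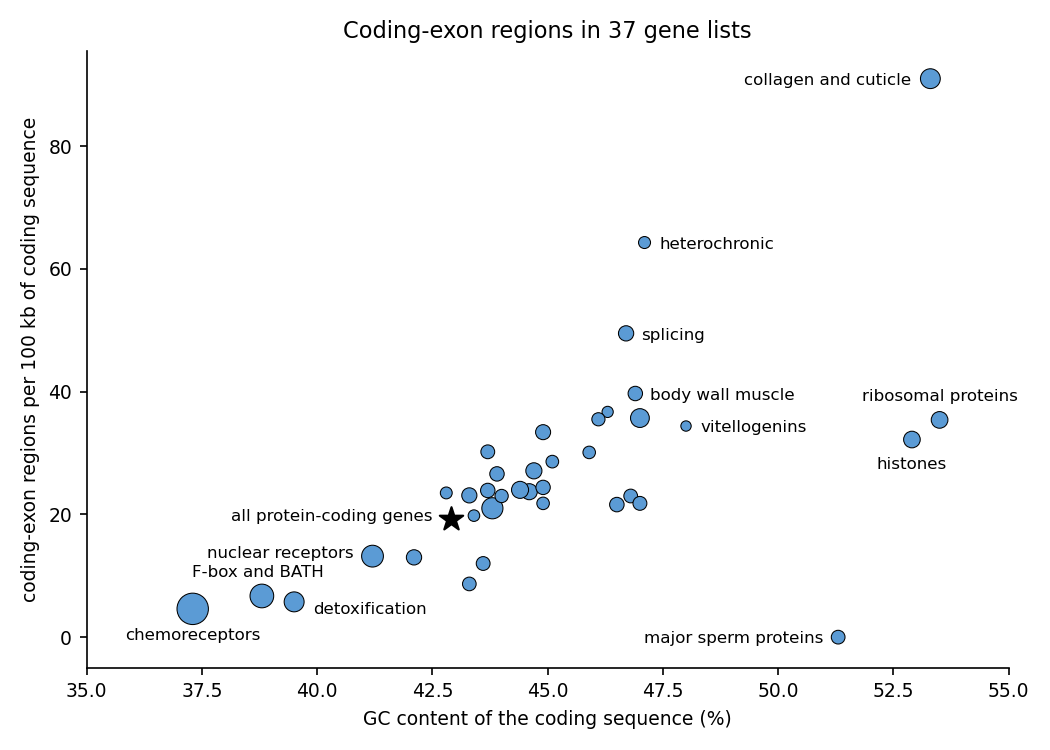
Coding-exon regions per 100 kb of coding sequence against the GC content of that coding sequence (percent) for 37 gene lists, with larger points for longer lists and a star for all protein-coding genes (19.3 per 100 kb at 42.9% GC). Collagen and cuticle genes stand highest at 91.0, chemoreceptors lie near the bottom at 4.61, and ribosomal protein genes lie at 35.4. The GC content of the collagen and cuticle list is taken over all its coding bases, genes without a region included.

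Over single genes, 6 had 8 or more coding-exon regions and 9 had 7. The spectraplakin gene vab-10 had 17 in 23.4 kb of coding sequence, 9 of them in both replicates, with a best rank of 3139. The titin gene ttn-1 had 10 in 55.4 kb, 1 of them in both replicates. The ankyrin gene unc-44 had 10 in 21.8 kb, 8 in both replicates, and the talin gene tln-1 had 10 in 7.90 kb, 4 in both. These genes differed in how often the replicates shared a region, and none of their regions was thresholded.

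Further down came let-805, the myotactin gene, and set-16, a histone H3 lysine methyltransferase gene, with 8 each. The genes ketn-1 (kettin), unc-52 (perlecan), dys-1 (dystrophin) and chd-7, a chromodomain helicase gene, had 7 each. They tied with sea-2, Y43F8B.3, hrpu-1, vit-6 and pqn-87, which also had 7 and are shorter in coding sequence. All 7 in chd-7 were in both replicates, against 2 in ketn-1. Per kb of coding sequence, and among genes with at least 4, the highest were M03F4.6 at 3.23, plpp-1.1 at 2.64, mlt-10, a moulting gene, at 2.42, pygo-1, the pygopus homologue of Wnt signalling, at 1.91, and kal-1, the anosmin homologue, at 1.90.

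The count followed coding length. The share of genes with a region was 6.76% for coding sequences up to 0.5 kb, 17.6% from 1.0 to 1.5 kb and 58.7% over 10.0 kb. The density stayed between 16.3 and 22.6 per 100 kb over these lengths. Of the 3601 genes, 2840 had 1 region and 541 had 2.

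The exons with summits were longer than coding exons at large. The median length of the coding exon under the summit was 327 bp, against 251 bp for the exon of a coding base drawn from all coding sequence. All regions but 1 had the same width, 456 bp, and a median of 73.2% of a region was coding sequence. The summit's whole window of 50 bp on each side was coding in 3050 regions (64%). In 530 regions the summit was also in a UTR or an intron of another transcript or gene. The 530 included 5 of the 16 thresholded regions: ZK112.4, lin-42 and col-130 (intron), and T25F10.1 and F26F12.3 (UTR). In 29 coding-exon regions the summit was also in a gene annotated as other than protein-coding.

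By place in the gene, 12.2% of summits were in first, 67.8% in internal, 18.2% in last and 1.81% in single coding exons. The same shares of all coding bases were 10.9%, 72.9%, 15.3% and 1.01%. Among the 500 coding-exon regions of highest signal, 26.4% were in last exons (20.4% of 432 without the collagen and cuticle genes). Of the 16 thresholded regions, 4 were in genes with a single coding exon: ZK112.4, F41F3.3, ZC477.4 and T25F10.1.

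A promoter window, which reached 1000 bp up and 500 bp down from an annotated start of transcription, held 1928 summits (40.5%), and 40% of all coding bases lie in such windows. The 16 thresholded regions had 8 there (50%) against 40.4% of the others, an odds ratio of 1.47 (0.552 to 3.93, two-sided Fisher's exact test, p = 0.454). The interval is wide and includes both a lower and a higher share. Those 8 lay at 10 bp (R12C12.6), 61 bp (ZC477.4), 82 bp (T25F10.1), 99 bp (Y18D10A.4), 138 bp (F26F12.3), 174 bp (ZK112.4), 199 bp (F41F3.3) and 289 bp (lin-42) from the nearest start.

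By chromosome, coding sequence of I and III held 230 coding-exon regions per Mb each, II 212, IV 191, X 176 and V 142. On X, 624 of 3642 nuclear regions (17.1%) were in coding exons, against 22.3% over all chromosomes, and 20.1% of X is coding sequence.

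TGACCA stood within 50 bp of 182 coding-exon summits (3.82%), against 3.59% of other nuclear regions and 3.70% of all pooled regions. The odds ratio was 1.07 (0.901 to 1.26, two-sided Fisher's exact test, p = 0.456), and it was 0.978 with a window of 25 bp. Words were sought on both strands. CACGTG, the E-box word, was in 3.76% of coding-exon windows and 1.95% of other nuclear ones. GAGAGA was in 5.35% against 13.8%, and AATAAA in 7.39% against 18.3%. Of the 16 thresholded windows, 5 held GAGAGA (31.2%, Wilson interval 14.2 to 55.6), against 292 of the 1049 other thresholded regions (27.8%). The interval includes the share of the other thresholded regions. Coding and noncoding sequence differ in their words throughout, and these shares were not corrected for composition.

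The tagged gene bcl-11 (V) had no coding-exon region in its 2.10 kb of coding sequence. The marker gene unc-119 (III), mutated in the strain, had 1, with a signal of 27.2 and a pooled rank of 14498.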

How the data were processed

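Each library was a ChIP-seq of whole late embryos with an antibody against GFP. The authors deposited lists of enriched regions on ce11 (WBcel235) for each of 2 replicates, for the pooled reads and for the thresholded set, with a signal for each region given by their peak caller, per the labels and file names. No aligner, caller, version, IDR level or signal scale is given in the sources used here. Depth per library is unknown, and control libraries, signal tracks and the ce10 lists were not analysed here.

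Summits were placed on the Ensembl release 115 annotation in the order mitochondrial, within 100 bp of tRNA, snoRNA or snRNA genes, coding exon, UTR, intron, noncoding gene, intergenic. Overlap meant at least 1 shared base. The rank of a pooled region in a replicate was that of the highest-signal region it overlapped there. Shares have 95% Wilson intervals and were compared by two-sided Fisher's exact tests (p threshold 0.05, Benjamini-Hochberg adjustment within each family of 3), odds ratios with intervals on the log scale. GC content and words used 50 bp on each side. Repeated words were 31-base words, either strand, that occur more than once in the WBcel235 genome. Code was checked on simulated data. Python 3.11.15, numpy 2.4.6, pandas 2.3.3, scipy 1.17.1 and matplotlib 3.10.9 were used.

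Named were the 16 thresholded regions, the next 10 by signal, 10 genes with most regions (ties broken by longer coding sequence, which chose 4 of the 9 genes with 7), the 5 with most per kb among genes with at least 4, up to 4 genes per list by signal, bcl-11 and unc-119. The genes sea-2, Y43F8B.3 and pqn-87, tied at 7, and the collagen genes sqt-3, col-83, col-84, col-95, dpy-17 and bli-6 were named after their values were seen. So were bli-3, bli-4, bli-5, dpy-5, dpy-9 and rol-3 of the collagen and cuticle list. The members and lists were chosen with earlier results of these data known. Of the 37 gene lists, 11 names were not matched, and entries of the homeobox and zinc finger lists that did not belong were removed after the values were seen. GC bins, repeated words, glycine and proline codons and the split by collagen genes were added after seeing the data.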

Additional observations from a re-analysis of the deposited data

How the results depend on the processing

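Of 48 alternatives, which changed the overlap rule, the distance from RNA genes, the place of the summit, the window or the list, 45 kept the direction and the side of the threshold. The share found in both replicates lost its difference from introns without thresholded regions (odds ratio 0.929, exact test, adjusted p = 0.0587; 0.784 to 0.929 over its alternatives). The GC difference of the 16 sites was 0.542 points against sub-threshold regions among the 3000 highest signals (permutation test, p = 0.795; 0.542 to 8.31 over its alternatives). The odds ratio of TGACCA went to 0.978 with a window of 25 bp (exact test, p = 0.903). With replicate 1 or 2 left out, the thresholded list could not be formed, since it rests on both replicates. The share in the top of the remaining replicate's own list was compared instead. With replicate 1 and then replicate 2 left out, the odds ratios of that share were 0.0795 and 0.0751 against other nuclear regions. They were 0.143 and 0.125 against introns, and 0.162 and 0.201 against UTRs. The cause was not tested. No paired analysis was possible because there is 1 group. Regions share libraries and are not replicates, 16 sites leave wide intervals, and depth is unknown, so a region missing from a list may have gone undetected.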
